A study of Mus musculus with 3 samples.

Results

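The cells described here are 136 microglia of 1 single-cell RNA-sequencing library, library 2, selected on their own count of Myc transcripts, and 2454 cells of the same library in which no Myc transcript was counted. Each transcript molecule was counted once by its unique molecular identifier (UMI). Among the 7522 cells of the series, 3591 carried the barcode suffix 2, and 3218 of those held at least 4000 UMIs. The 136 cells held at least 2 UMIs of Myc and are called Myc ≥2 cells, the 2454 cells held 0 and are called Myc 0 cells, and 628 cells between them held 1 UMI and entered neither group. Myc UMIs were counted before each cell was thinned at random to 4000 UMIs, and all levels below are those of thinned cells in counts per 1000000 UMIs (CPM), unless stated otherwise.

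The cells were YFP (+) cells sorted from the lumbar spinal cord of heterozygous Cx3cr1-creER-yfp/+ mice on a C57BL/6 background, in which YFP is made from the Cx3cr1 locus. The study holds 1 naive group and groups taken 24 h and 48 h after injury of the sciatic nerve, with 3 animals pooled in each. Each group gave 1 library. The labels do not tie barcode suffixes to groups, so that library 2 is 1 library of unknown time point, without a replicate. No test between Myc ≥2 and Myc 0 cells was made, because cells of 1 library are not replicates. Summed UMIs have exact Poisson 95% intervals, ratios exact conditional binomial ones and shares of cells Clopper-Pearson ones, and all of them cover counting error only.

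Myc is a transcription factor that binds DNA as a heterodimer with Max, at the E-box CACGTG among other sites, and raises the output of many genes of ribosome production, nucleotide synthesis, glycolysis and cell-cycle entry. The Mxd proteins, Mnt and Mga compete with it for Max. Its messenger RNA is short-lived and scarce, so that droplet sequencing finds it in only some of the cells that make it. Microglia are the resident macrophages of the central nervous system, which divide rarely at rest and enter the cell cycle in the spinal cord after damage to a peripheral nerve.

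The Myc gene (ENSMUSG00000022346) lies on chromosome 15 at 61985391-61990374 of GRCm38, plus strand. Its count chose the groups, so that its level in them is a description. In library 2, 106 cells held 2 UMIs of Myc, 28 held 3 and 2 held 4. The cells just inside the threshold, with 2 UMIs, had a Myc level of 219 CPM (177-269) after thinning, and those just outside it, with 1 UMI, had 142 CPM (127-157). All 136 Myc ≥2 cells together gave 145 Myc UMIs or 267 CPM (225-314). After thinning, 46 of them still held at least 2 Myc UMIs and 44 held none.

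Depth moved with the selection. The Myc ≥2 cells had a median of 8316 UMIs per cell before thinning, against 6027 in Myc 0 cells. Cells with over 10000 UMIs made up 33.8% of the Myc ≥2 cells (46 cells) and 10.4% of the Myc 0 cells (256 cells). The share of cells with at least 2 Myc UMIs was 1.22% (0.527-2.39) among cells of 4000 to under 5000 UMIs and 10.8% (8.05-14.2) among cells of 10000 or more. Over the same classes of depth the level of Myc ran from 34.4 CPM (28.1-41.8) in the shallowest class to between 39.5 and 43.8 CPM in the other 4. The share of Myc ≥2 cells was thus higher in deeper cells beyond its counting error, while the Myc level of the deepest class, 42.1 CPM (36.8-48.0), overlapped that of the shallowest. In the median Myc 0 cell, a count of 0 allows a Myc level of up to 498 CPM (3 counts), which is above the level of the Myc ≥2 cells.

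**Figure D1:**
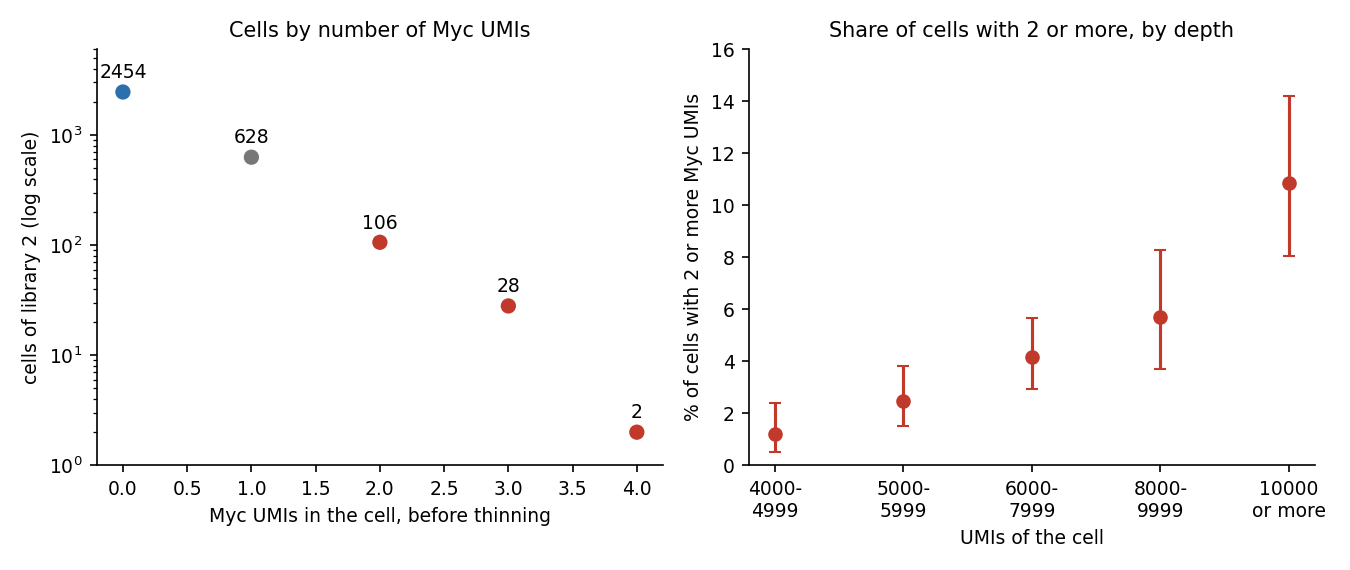
Left, cells of library 2 with at least 4000 UMIs by their number of Myc UMIs (points, log scale), in blue Myc 0 cells, in grey cells with 1 UMI and in red the 136 Myc ≥2 cells. Right, the share of cells with at least 2 Myc UMIs in 5 classes of depth, with Clopper-Pearson 95% intervals, which runs from 1.22% to 10.8%.

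To measure Myc in UMIs that had not chosen the cells, the UMIs of each cell were divided at random into a first and a second part of equal size, cells were grouped by Myc in the first part, and the level was read in the second. In library 2, the 46 cells with at least 2 Myc UMIs in the first part gave 8 Myc UMIs in the second, which is 36.2 CPM (15.6-71.4). The 2801 cells with none in the first part gave 39.6 CPM (35.8-43.8). The ratio was 0.914 (0.392-1.82), so that the higher Myc level of cells chosen in this way was not seen in their other UMIs at this depth. In library 3, the same procedure gave 237 CPM (198-280) in 159 cells against 83.0 CPM (76.4-90.1) in 2240, a ratio of 2.85 (2.35-3.44). For counts that follow a Poisson distribution the variance equals the mean. The variance of thinned Myc counts over cells was 1.08 times their mean in library 2 and 1.39 times in library 3. Both values lay above 1, and whether either departs from a Poisson distribution was not tested. Because of the result of the split, the name Myc-high is not used for the cells of library 2. The deposited counts show that these cells held 2 or more Myc UMIs, not that they formed a class with more Myc. Such a class is not excluded either, as the split gave 8 Myc UMIs and an interval up to 1.82.

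**Figure D2:**
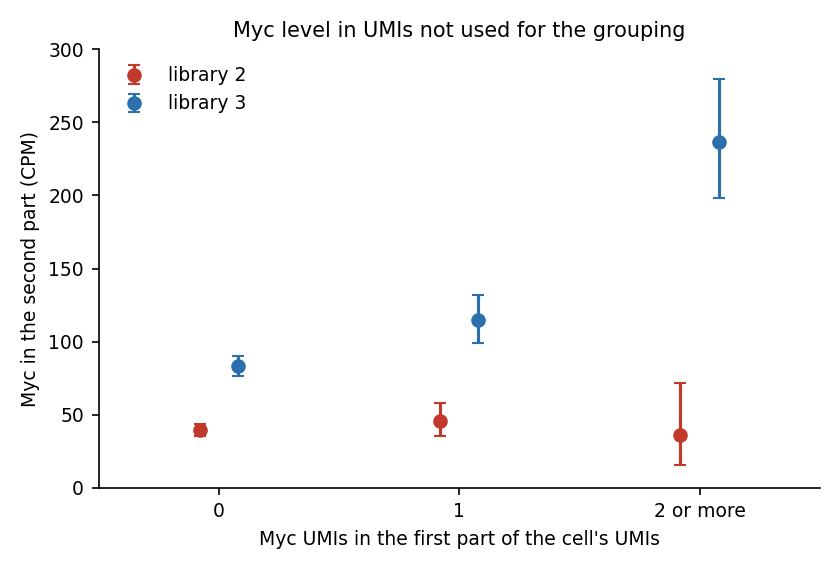
Myc level (CPM) in the second part of each cell's UMIs, for cells grouped by Myc UMIs in the first part, with Poisson 95% intervals. The 3 points of library 2 (red) lie between 36.2 and 45.8 CPM, and those of library 3 (blue) run from 83.0 to 237 CPM.

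Both groups were microglia by their markers. All 10 microglia markers were measured in both. Tmem119, a microglial membrane protein, was at 3390 CPM in Myc ≥2 and 3465 CPM in Myc 0 cells. Csf1r, the receptor on which microglial survival depends, was at 1746 and 1769 CPM. Summed over the 10 markers the ratio of Myc ≥2 to Myc 0 was 0.979 (0.962-0.997). The 9 lists of other cell types summed to between 1.84 and 25.7 CPM in Myc ≥2 cells and between 2.04 and 29.0 CPM in Myc 0 cells, the highest being oligodendrocyte genes in both, and no member of any of them reached 50 CPM. In Myc ≥2 cells 6 of 7 monocyte markers, 5 of 7 markers of perivascular macrophages and 4 of 5 lymphocyte markers were at 0. In Myc 0 cells 1, 2 and 2 of them were, with 9816000 thinned UMIs against 544000 in Myc ≥2 cells. In library 2, 23 barcodes were also found in another library, 1 of them in a Myc ≥2 and 14 in Myc 0 cells. Genes detected per thinned cell had medians of 1854 and 1843, and mitochondrial transcripts made up medians of 1.56% and 1.52% of UMIs.

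The transcriptomes of the groups lay close together. Of 3165 genes at 50 CPM or more, Myc left out, 23 (0.727%) were at least 1.5-fold higher in Myc ≥2 cells and 19 (0.6%) were at least 1.5-fold lower. The 50 CPM applied to the mean of both groups, so that a gene could reach it through the group where it was higher. The median ratio was 1.02, and the central 90% of ratios lay between 0.793 and 1.31. Of the 23 higher genes 21 had a mean below 100 CPM, as had 18 of the 19 lower genes, and the number of UMIs behind a value in Myc ≥2 cells was 34 to 77 for the higher and 20 to 101 for the lower genes. Of 3191 genes, another random thinning of the same cells gave 39 higher and 16 lower, of which 7 and 4 were shared with the first thinning. Without thinning, with each cell's share of UMIs averaged, 4 of 3182 genes were higher and 1 was lower. With Myc 0 cells weighted to the depth of the Myc ≥2 cells there were 23 and 11 of 3167, with 14 and 8 shared. Among the 748 genes at 200 CPM or more, the highest and lowest ratios were 1.34 and 0.648.

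**Figure D3:**
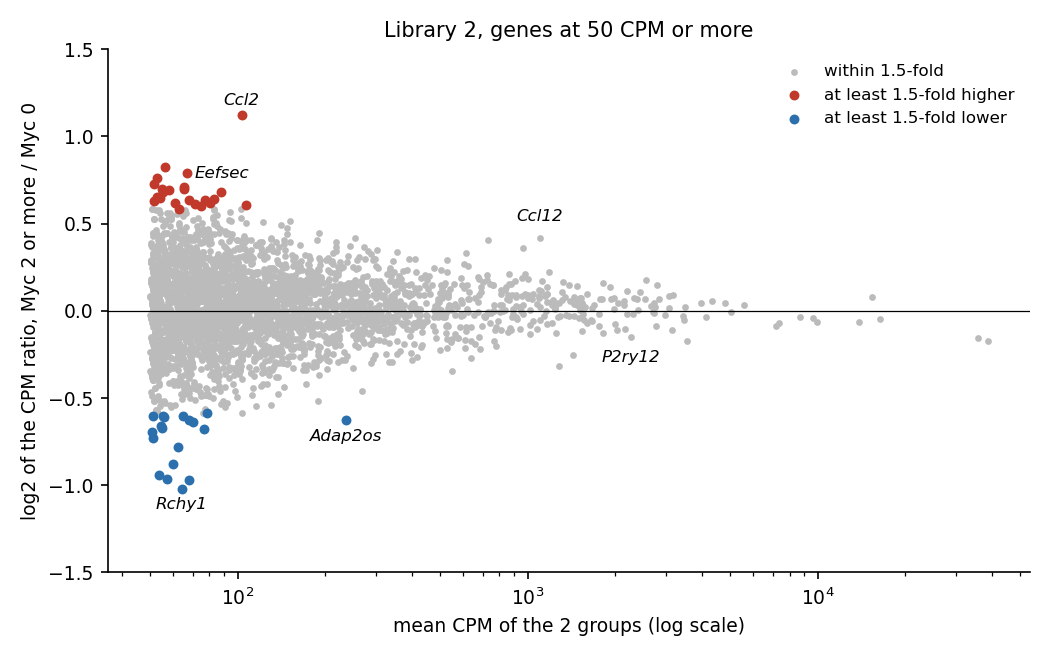
Log2 of the CPM ratio of Myc ≥2 to Myc 0 cells in library 2 against the mean CPM of the groups (log scale), for 3165 genes at 50 CPM or more. The 23 genes at least 1.5-fold higher (red) and the 19 at least 1.5-fold lower (blue) sit almost all below 100 CPM, where the spread is widest, and Ccl2 and Rchy1 lie at the ends.

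Ccl2 (ENSMUSG00000035385, chromosome 11, 82035571-82037453, plus strand), a chemokine that draws monocytes through the receptor Ccr2, had the highest ratio of the genes at 50 CPM or more. It was at 142 CPM (112-177; 77 UMIs) in Myc ≥2 and 65.0 CPM (60.0-70.2; 638 UMIs) in Myc 0 cells, a ratio of 2.18 (1.70-2.76). At least 1 Ccl2 UMI was held by 42 of 136 Myc ≥2 cells (30.9%, 23.2-39.4) and by 466 of 2454 Myc 0 cells (19.0%, 17.5-20.6). Among Myc ≥2 cells 1 cell held 12 and another held 9 of the 77 UMIs, and without the 2 highest cells of each group the ratio was 1.70. The level did not keep its place across depths. In cells of over 10000 UMIs Ccl2 was at 299 CPM in Myc ≥2 and 91.8 CPM in Myc 0 cells, a ratio of 3.26 (2.29-4.59). In cells of over 6000 and up to 10000 UMIs it was at 52.4 and 75.6 CPM, a ratio of 0.693 (0.365-1.20) on the other side of 1, and in cells of 4000 to 6000 UMIs the ratio was 1.58 (0.715-3.05) with 9 UMIs in Myc ≥2 cells. With all cells of over 10000 UMIs left out the ratio was 0.988, so that the difference rested on 46 deep cells. No other cell type was present from which the level of free Ccl2 or Myc transcripts in the droplets could be read.

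The neighbouring chemokine Ccl12, which shares the receptor Ccr2, was abundant. It was at 1261 CPM (1168-1359) in Myc ≥2 and 946 CPM (927-965) in Myc 0 cells, a ratio of 1.33 (1.23-1.44), and 1.17 with the depth weights. Its ratio was 1.246 (1.02-1.504), 1.09 (0.962-1.23) and 1.31 (1.15-1.49) from the shallowest to the deepest of the 3 classes. By number of Myc UMIs, its level was 946 CPM at 0, 1039 CPM at 1, 1231 CPM at 2 and 1367 CPM at 3 or more. Of 27 cytokines and chemokines 9 were measured at 50 CPM. Of these only Ccl2 passed 1.5-fold, against 0.727% higher and 0.6% lower of all genes. A ratio above 1 was found for 6 of the 9, but most of all genes tested were above 1 too, with a median of 1.02. Il1a, the inflammatory cytokine interleukin 1 alpha, had a ratio of 1.21 (0.931-1.55), Ccl3 1.08 (0.731-1.54) and Ccl4 0.822 (0.591-1.12), the last pair being chemokines. Tgfb1, the cytokine that maintains microglial identity, was at 498 and 545 CPM. The list summed to 2974 and 2616 CPM, a ratio of 1.14 (1.08-1.20), or 1.08 with depth weights. Ccl12 and Ccl2 together differed by more CPM than the whole list, so that its other members were not higher in sum.

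Genes of DNA replication formed the next group. Of 58 genes 19 were measured at 50 CPM, and 2 of these, Mcm5 and Dtl, were at least 1.5-fold higher, against 0.727% of all genes. Both reached a mean of 50 CPM only through the Myc ≥2 cells, so that the floor helped to place them in this count. Mcm5, a subunit of the replicative helicase, was at 66.2 CPM (46.3-91.6; 36 UMIs) and 39.0 CPM (35.2-43.1), a ratio of 1.70 (1.17-2.39). Dtl, the substrate receptor of the ubiquitin ligase that degrades Cdt1 in S phase, was at 80.9 and 49.8 CPM, a ratio of 1.62 (1.16-2.21). Mcm3, Mcm6 and Mcm7 of the same helicase had ratios between 1.11 and 1.32, and Pcna, the sliding clamp, one of 1.09 (0.768-1.49). The clamp loader subunits Rfc1 and Rfc3 were at 0.839 and 0.853. Dnajc9, a histone chaperone outside the list, was at 84.6 and 48.9 CPM, a ratio of 1.73 (1.249-2.34). It too reached 50 CPM only through the Myc ≥2 cells. With depth weights none of the 3 passed 1.5-fold, Mcm5 being at 1.48, Dtl at 1.40 and Dnajc9 at 1.48. The summed list was at 2765 CPM in Myc ≥2 and 2383 CPM in Myc 0 cells, a ratio of 1.16 (1.10-1.22), and at 0.995 once Myc 0 cells were weighted to the same depth. Within depth, the ratio of the list was 1.20 (1.06-1.36) in cells of 4000 to 6000 UMIs, 1.12 (1.04-1.20) in cells of over 6000 and up to 10000 and 0.825 (0.748-0.908) in deeper cells.

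Mitosis genes were higher in sum but not at every depth. Of 76 genes in the files 21 were measured at 50 CPM. Only Smc4, a condensin subunit, was 1.5-fold higher, against 0.727% of all genes, at 71.7 and 44.4 CPM. It reached a mean of 50 CPM only through the Myc ≥2 cells. Its ratio was 1.61 (1.13-2.24), and 1.23 with depth weights. Cks1b, which binds cyclin-dependent kinases, was at 112 and 78.4 CPM, a ratio of 1.43 (1.08-1.86). Mki67, which codes for the proliferation antigen Ki67, was at 99.3 CPM (54 UMIs) and 80.8 CPM, a ratio of 1.23 (0.915-1.62), and at 0.882 with depth weights. Cdk1, the kinase of mitotic entry, was at 44.1 and 37.2 CPM, and Top2a, the topoisomerase that untangles sister chromatids, at 180 and 174 CPM. Stmn1, which destabilises microtubules, was at 676 and 567 CPM, a ratio of 1.19 (1.07-1.33) that was 0.992 with depth weights. The summed list had a ratio of 1.17 (1.13-1.21), and 0.941 with depth weights. It was 1.06 (0.964-1.16) in cells of 4000 to 6000 UMIs, 0.918 (0.866-0.972) in cells of over 6000 and up to 10000 and 0.968 (0.915-1.02) in deeper cells. Tuba1b was at 835 and 630 CPM, a ratio of 1.32 (1.20-1.46) that was 1.10 with depth weights. It is close in sequence to other alpha tubulin genes, which may affect how its reads were counted.

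Cells with many transcripts of replication and mitosis genes were also counted, by a cut-off that was not checked against a measure of division. With a cut-off of 10 thinned UMIs over 33 genes of replication and mitosis, 29 of 136 Myc ≥2 cells (21.3%, 14.8-29.2) and 325 of 2454 Myc 0 cells (13.2%, 11.9-14.6) passed. Cells were then divided at the quintiles of depth of the Myc ≥2 cells. In the shallowest of the 5 bins 2 of 27 Myc ≥2 cells (7.41%, 0.910-24.3) and 23 of 1100 Myc 0 cells (2.09%, 1.33-3.12) passed. In the deepest these were 11 of 28 (39.3%, 21.5-59.4) and 53 of 127 (41.7%, 33.05-50.8). In the second deepest they were 5 of 27 (18.5%, 6.30-38.1) and 87 of 222 (39.2%, 32.7-45.9). The intervals of the groups overlapped in all 5 bins, each with 27 or 28 Myc ≥2 cells. Overlap of intervals is not a test and none was made, so that a difference within a bin was neither shown nor excluded. In Myc 0 cells themselves the share ran from 2.09% to 41.7% with depth. The part of depth in the differences of the replication and mitosis genes was measured only by these weights and bins.

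Ribosome biogenesis genes, which make and assemble ribosomal RNA and are classical targets of Myc, were slightly higher and kept that side of 1 at every depth. None of the 23 measured at 50 CPM, of 59 in the files, passed 1.5-fold in either direction, against 0.727% higher and 0.6% lower of all genes. A ratio above 1 was found for 21 of the 23, with a median of 1.13 against 1.02 over all genes tested. The share of all tested genes above 1 was not counted, but with that median it was a majority. Npm1, the nucleolar chaperone nucleophosmin, was at 364 CPM (315-418; 198 UMIs) and 307 CPM (296-318), a ratio of 1.19 (1.02-1.37). Ncl, nucleolin, was at 290 and 268 CPM, a ratio of 1.08 (0.918-1.27). Nop58, a core protein of box C/D ribonucleoproteins, and Gtpbp4, a GTPase of large-subunit assembly, had the highest ratios of these 23 at 1.46 (1.04-2.0) and 1.44 (1.01-2.01). Ddx18, a nucleolar helicase, was the lowest of the 23 at 0.894 (0.659-1.19), and Imp4, of the small-subunit processome, stood at 0.999. The summed list was at 3855 and 3424 CPM, a ratio of 1.13 (1.08-1.18), and 1.09 with depth weights. It was 1.07 (0.963-1.18), 1.05 (0.976-1.12) and 1.19 (1.10-1.28) in the 3 classes from shallow to deep.

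**Figure D4:**
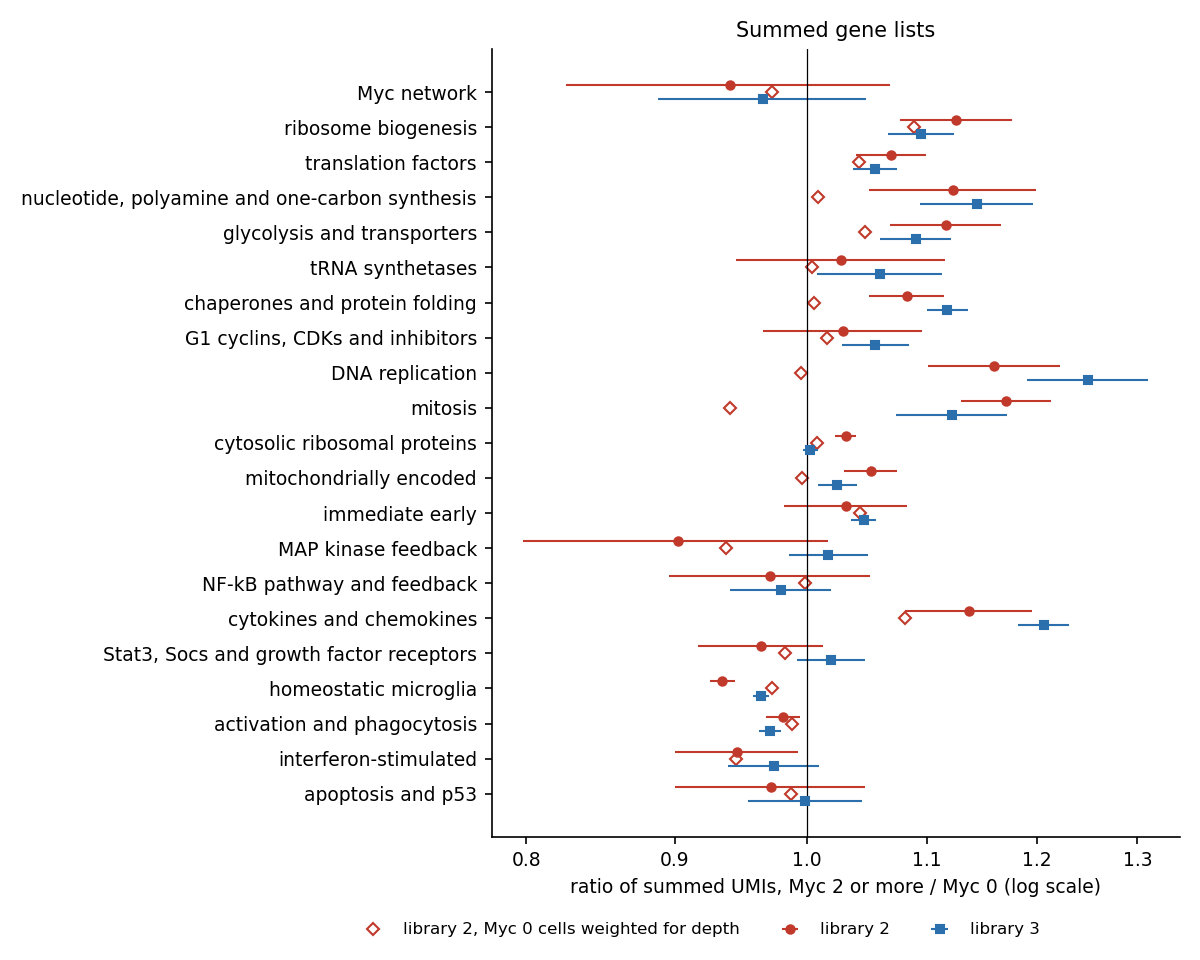
Ratio of summed UMIs of 21 gene lists, Myc ≥2 to Myc 0 cells (log scale), with 95% counting intervals, in library 2 (red circles) and library 3 (blue squares). Open diamonds are library 2 with Myc 0 cells weighted to the depth of Myc ≥2 cells, where DNA replication (0.995) and mitosis (0.941) no longer lie above 1.

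The other growth lists showed small ratios of the same kind, and none of their members that reached 50 CPM passed 1.5-fold. Of all genes tested only 0.727% were that much higher and 0.6% that much lower. Translation factors summed to a ratio of 1.07 (1.04-1.10), or 1.04 with depth weights. Eif4g1, the scaffold of the cap-binding complex, had a ratio of 1.45 (1.11-1.86), while the helicase subunit Eif4a2 was at 0.795 (0.643-0.974). Genes of nucleotide, polyamine and one-carbon synthesis summed to 1.12 (1.05-1.20) and to 1.01 with depth weights. Of this list Gart, an enzyme of purine synthesis, was at 1.40 (0.963-1.98), Shmt2 of mitochondrial one-carbon metabolism at 1.35 (0.922-1.91) and Nme1, a nucleoside diphosphate kinase, at 1.01 (0.821-1.22). Odc1, the first enzyme of polyamine synthesis and a known Myc target, was at 47.8 and 40.7 CPM, a ratio of 1.17 (0.757-1.74). Glycolysis genes and transporters summed to 1.12 (1.07-1.17) and 1.05 with depth weights, with Eno1, enolase 1, at 397 and 314 CPM. Chaperones summed to 1.08 (1.05-1.12) and 1.01 with depth weights, with the mitochondrial chaperones Hspa9 and Hspd1 at 1.34 (0.975-1.79) and 1.29 (1.02-1.62). Transfer RNA synthetases stood at 1.03 (0.945-1.12). Cytosolic ribosomal proteins, all 78 of which were measured, summed to 1.03 (1.02-1.04), and their many processed pseudogenes can take part of their reads. Mitochondrially encoded genes summed to 1.05 (1.03-1.07), and both lists stood between 0.996 and 1.01 with depth weights.

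Partners and rivals of Myc were scarce. Max was at 47.8 CPM (26 UMIs) and 50.9 CPM, a ratio of 0.938 (0.607-1.39). Mxd4, a repressor that competes for Max, was at 47.8 and 70.1 CPM, a ratio of 0.682 (0.442-1.01), and it was found in 16.2% and 24.3% of cells. Mxd1 had 5 UMIs and Mnt 9 in Myc ≥2 cells, with ratios of 1.04 (0.328-2.51) and 1.0 (0.450-1.95). No UMI of Mycn was counted in either group. Of the 15 genes of the network only Mxd4 and Mycbp2 reached 50 CPM, and neither passed 1.5-fold, against 0.727% higher and 0.6% lower of all genes. Of G1 regulators Cdk4, the partner of D cyclins, was at 160 and 134 CPM, a ratio of 1.19 (0.948-1.48), Ccnd1 at 134 and 127 CPM and Ccnd3 at 114 and 89.0 CPM, whereas Ccnd2 had 0 UMIs in Myc ≥2 and 20 in Myc 0 cells. The Cdk inhibitor Cdkn1a, p21, was at 257 and 282 CPM, a ratio of 0.912 (0.764-1.08).

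Promoters were examined for the E-box CACGTG, the site of Myc and Max, in RefSeq windows of 300 bases (250 before to 50 after each transcription start, GRCm38.p6). The motif is its own reverse complement, so that both strands were searched at once. A window with it was found for 2187 of 27025 genes (8.09%), for 326 of the 2469 tested genes with a window (13.2%), for 3 of 15 higher genes (20%, 4.33-48.1), for 1 of 15 lower genes (6.67%, 0.169-31.9) and for 11 of 53 ribosome biogenesis genes (20.8%, 10.8-34.1). The intervals of the higher genes, the lower genes and the ribosome biogenesis genes all contained the share of all tested genes. Other lists had higher or lower shares, as with 30.8% (9.09-61.4) of 13 transfer RNA synthetases and 5% (1.04-13.9) of 60 mitosis genes. The windows of Ncl, Nop56, Nop58 and Odc1 held no CACGTG. None of 19 cytokine and chemokine genes had one, Ccl12 among them. The 250 bases before the start are shown for Cdk4, whose window held 4, then for the 3 higher genes and the 1 lower gene that hold the motif, with every CACGTG in capitals and all read along the strand of the gene.
Cdk4 (chr10:127063285-127063534, plus strand): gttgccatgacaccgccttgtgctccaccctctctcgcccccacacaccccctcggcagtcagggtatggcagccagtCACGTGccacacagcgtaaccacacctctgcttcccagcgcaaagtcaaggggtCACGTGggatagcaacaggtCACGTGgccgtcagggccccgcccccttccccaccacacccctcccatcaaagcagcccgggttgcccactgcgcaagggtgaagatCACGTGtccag
Rabgap1 (chr2:37452004-37452253, plus strand): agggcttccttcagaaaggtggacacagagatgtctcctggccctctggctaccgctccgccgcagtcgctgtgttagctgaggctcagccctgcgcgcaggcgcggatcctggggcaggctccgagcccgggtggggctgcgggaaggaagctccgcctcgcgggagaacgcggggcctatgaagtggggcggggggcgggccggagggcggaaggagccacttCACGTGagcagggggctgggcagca
A430005L14Rik (chr4:153956987-153957236, plus strand): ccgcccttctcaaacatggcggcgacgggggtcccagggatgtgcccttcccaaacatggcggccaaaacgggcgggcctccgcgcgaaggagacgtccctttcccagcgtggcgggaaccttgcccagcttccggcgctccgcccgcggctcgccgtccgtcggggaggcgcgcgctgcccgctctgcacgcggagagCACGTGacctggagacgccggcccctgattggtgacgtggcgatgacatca
Morf4l2 (chrX:136741610-136741859, minus strand): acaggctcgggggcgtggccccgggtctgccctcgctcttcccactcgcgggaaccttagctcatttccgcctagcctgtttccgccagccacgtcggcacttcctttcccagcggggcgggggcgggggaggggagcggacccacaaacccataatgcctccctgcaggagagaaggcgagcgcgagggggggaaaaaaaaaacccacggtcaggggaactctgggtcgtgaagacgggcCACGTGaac
Snn (chr16:11066048-11066297, plus strand): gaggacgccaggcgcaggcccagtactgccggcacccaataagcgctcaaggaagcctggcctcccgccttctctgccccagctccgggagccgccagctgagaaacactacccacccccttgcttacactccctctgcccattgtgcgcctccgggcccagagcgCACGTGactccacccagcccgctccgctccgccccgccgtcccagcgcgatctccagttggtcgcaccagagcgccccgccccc

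The E-boxes of Cdk4 begin 172, 118, 98 and 11 bases before its start. The ratio of Cdk4 was 1.19 (0.948-1.48), given above. Rabgap1, a GTPase-activating protein for Rab proteins, with its E-box 25 bases before the start, was at 64.3 and 38.8 CPM, a ratio of 1.66 (1.14-2.35). A430005L14Rik, an uncharacterised gene, with the motif at 51 bases, was at 80.9 and 49.4 CPM, a ratio of 1.64 (1.17-2.23). Morf4l2, a chromatin protein of the NuA4 complex, with the motif at 9 bases, was at 129 and 84.6 CPM, a ratio of 1.52 (1.17-1.94). Snn, the small membrane protein stannin, with the motif at 84 bases, was at 46.0 and 79.0 CPM, a ratio of 0.582 (0.374-0.866). The motif was thus present on both sides of the comparison. With another random thinning Rabgap1, A430005L14Rik, Morf4l2 and Snn had ratios of 1.21, 1.28, 1.33 and 0.721. Without thinning they were at 1.32, 1.33, 1.44 and 0.736. None of them passed 1.5-fold in either setting, so that their place among the higher and lower genes depends on the thinning. Rabgap1 and A430005L14Rik also reached a mean of 50 CPM only through the Myc ≥2 cells, and Snn only through the Myc 0 cells. For Rabgap1, Morf4l2 and Snn the RefSeq start used lies inside the gene as GENCODE places it. Rabgap1 begins there at 37443279 and Snn at 11060945, and Morf4l2, on the minus strand, at 136743690. The windows shown for these genes are therefore not at their outermost start.

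The remaining genes with the highest ratios did not belong to 1 pathway. Sfxn1, the mitochondrial serine carrier, was at 71.7 CPM (51.0-98.0; 39 UMIs) and 40.4 CPM (36.6-44.6), a ratio of 1.77 (1.24-2.47). It was found in 25% of Myc ≥2 and 14.6% of Myc 0 cells, and its ratio was 1.72 with depth weights and 1.51 without thinning. Ccl2, Sfxn1 and Mcm5 were the 3 higher genes that also passed 1.5-fold without thinning. Of these, Sfxn1 and Mcm5 reached a mean of 50 CPM only through the Myc ≥2 cells. Eefsec, the elongation factor for selenocysteine, was at 108 and 67.5 CPM, a ratio of 1.61 (1.21-2.098) that was 1.22 without thinning. Cyp20a1, an orphan cytochrome P450, had a ratio of 1.62 (1.12-2.27). Cpsf3l, the catalytic subunit of the Integrator complex, and Dus1l, a dihydrouridine synthase, had ratios of 1.60 (1.11-2.24) and 1.57 (1.08-2.22). Cyp20a1, Cpsf3l and Dus1l too reached 50 CPM only through the Myc ≥2 cells, so that the floor helped to place them here.

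The genes with the lowest ratios were likewise of mixed function and each rested on few UMIs. Rchy1, a ubiquitin ligase of p53 (ENSMUSG00000029397, chromosome 5, 91948904-91963068, minus strand), was at 42.3 CPM (26.8-63.4; 23 UMIs) in Myc ≥2 and 86.0 CPM (80.3-92.0; 844 UMIs) in Myc 0 cells, a ratio of 0.492 (0.310-0.743). Without thinning its ratio was 0.732. Mtfr1l, a mitochondrial fission regulator, was at 46.0 and 90.1 CPM, a ratio of 0.510 (0.328-0.758) and 0.713 without thinning. Dcaf8, a ubiquitin ligase adaptor, had a ratio of 0.513 (0.315-0.790), Sult1a1, a sulfotransferase, 0.521 (0.316-0.811), and Pkib, an inhibitor of protein kinase A, 0.545 (0.343-0.823). The mitochondrial J-domain protein Dnajc30, the methyltransferase Thumpd3, the splicing factor Sf3b6, the iron-sulfur assembly factor Nubp1, the Y-linked helicase Ddx3y and the p53 target Sesn1 lay between 0.603 and 0.644. Of the lower genes named so far here, all but Sf3b6 and Sesn1 reached a mean of 50 CPM only through the Myc 0 cells. Among the 19 lower genes only Dnajc30 also passed 1.5-fold without thinning, at 0.663. Adap2os had the most UMIs of the 19, with 101 and 2813, and stood at 186 and 287 CPM, a ratio of 0.648 (0.526-0.790) that became 0.780 with depth weights. It is antisense to Adap2, and how strand entered the counting is not given in the sources used here.

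Homeostatic microglial genes were slightly lower. Of 29 genes in the files all were measured at 50 CPM, and 7 had a ratio above 1. Most of all genes tested were above 1, with a median of 1.02. None of the 29 passed 1.5-fold, against 0.727% higher and 0.6% lower of all genes. The list summed to 75664 CPM in Myc ≥2 and 80957 CPM in Myc 0 cells, a ratio of 0.935 (0.925-0.944), or 0.973 with depth weights. Cst3, the protease inhibitor cystatin C and the most abundant gene of the list, was at 33772 and 37640 CPM, a ratio of 0.897 (0.884-0.911). Most of the difference in the sum was that of Cst3, and the median ratio of the 29 genes was 0.966. P2ry12, the purine receptor that guides microglial processes, was at 2145 CPM (2024-2272) and 2383 CPM (2353-2414), a ratio of 0.900 (0.848-0.955), which was 0.990 with depth weights. Mef2a, a transcription factor, was lowest of the list at 0.842 (0.715-0.986), and Olfml3, a secreted matrix protein, was highest at 1.08 (1.02-1.14). Cx3cr1, the fractalkine receptor whose locus marked the sorted cells, was at 1485 and 1530 CPM.

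Signalling lists lay near 1. Immediate early genes summed to 1.03 (0.982-1.08). Fos was at 182 CPM in Myc ≥2 and 181 CPM in Myc 0 cells, Egr1 at 46.0 and 49.5 CPM, and Zfp36, which destabilises cytokine transcripts, at 123 and 92.8 CPM, a ratio of 1.33 (1.02-1.70). Genes of MAP kinase feedback summed to 0.902 (0.798-1.02), those of the NF-kB pathway to 0.971 (0.896-1.05) and those of Stat3, Socs and growth factor receptors to 0.964 (0.917-1.01). Tnfaip3, which codes for the NF-kB inhibitor A20, had 2 UMIs in Myc ≥2 cells and 81 in Myc 0 cells, a ratio of 0.446 (0.0531-1.66). Il6ra, the receptor of interleukin 6, was at 147 and 197 CPM, a ratio of 0.748 (0.590-0.936) and 0.838 with depth weights. Interferon-stimulated genes summed to 0.946 (0.900-0.993), with Ifitm3, a restriction factor of viral entry, at 0.735 (0.546-0.970). Activation and phagocytosis genes summed to 0.981 (0.968-0.994) and genes of apoptosis and p53 to 0.972 (0.900-1.05). No member of these lists that reached 50 CPM passed 1.5-fold, against 0.727% higher and 0.6% lower of all genes. Below that level the ratios ran wider, as for Fosb, a partner of Jun chosen here after its value was seen, with 22 UMIs and a ratio of 1.98 (1.22-3.09).

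Levels by number of Myc UMIs, at 0, 1, 2 and 3 or more, came from 2454, 628, 106 and 30 cells. Ribosome biogenesis genes summed to 3424, 3558, 3828 and 3950 CPM in this order, DNA replication genes to 2383, 2605, 2693 and 3017 CPM, mitosis genes to 5006, 5431, 5783 and 6150 CPM and homeostatic genes to 80957, 78794, 76361 and 73200 CPM. Each of these lists kept 1 direction over the 4 classes. Median depth before thinning was 6027 UMIs at 0, 6874 at 1, 8394 at 2, 7917 at 3 and 8222 at 4. The class of 3 or more rests on 30 cells, and whether its levels differ from those at 2 was not tested. The part of depth in these levels was not tested either. Ccl2 was at 65.0, 89.6, 146 and 125 CPM. Rchy1 was at 86.0, 84.8, 40.1 and 50 CPM and Mtfr1l at 90.1, 89.2, 49.5 and 33.3 CPM, so that cells with 1 Myc UMI had the level of Myc 0 cells for both of these genes.

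Library 3 gave the same contrast in 375 cells with at least 2 Myc UMIs and 1752 with none. These were 12.9% (11.7-14.1) of its cells of 4000 UMIs or more, against 4.23% (3.56-4.98) in library 2, at median depths of 6931 and 5821 UMIs for its groups. Library 1 had 9 cells of that depth and none with 2 Myc UMIs. In library 3, 4 of 3160 genes (0.127%) were at least 1.5-fold higher, namely Ccl7, Lyar, Pim1 and Cd72, and 3 (0.0949%) were at least 1.5-fold lower, namely Trim12a, Gpcpd1 and Ubald2. None of the 23 higher and 19 lower genes of library 2 was among them, but Ccl7, Lyar and Pim1 were below 50 CPM in library 2. With so few genes past the fold in library 3, the lack of overlap says little. Of the 23 higher genes 11 reached 50 CPM in library 3 and 9 of the 11 had a ratio above 1 there, with a median of 1.10, and of the 19 lower genes 17 were measured and 10 had a ratio below 1, with a median of 0.982. Over all genes tested in both libraries, 50.7% had a ratio above 1 in library 3. Rchy1 was at 1.02 (0.840-1.22), Mtfr1l at 0.982 (0.807-1.19), Sfxn1 at 1.03 (0.793-1.31) and Eefsec at 0.932 (0.726-1.18) in library 3. Besides Ccl2, the higher genes measured in library 3 whose interval lay above 1 there were Wdr61 at 1.36 (1.09-1.69), Morf4l2 at 1.33 (1.12-1.56) and Etf1 at 1.30 (1.06-1.58). The lower genes whose interval lay below 1 were Snn at 0.779 (0.611-0.981) and Adap2os at 0.891 (0.797-0.993). With depth weights in library 3, Snn was at 0.843 and Adap2os at 0.978, and Wdr61, Morf4l2 and Etf1 were at 1.29, 1.28 and 1.28.

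**Figure D5:**
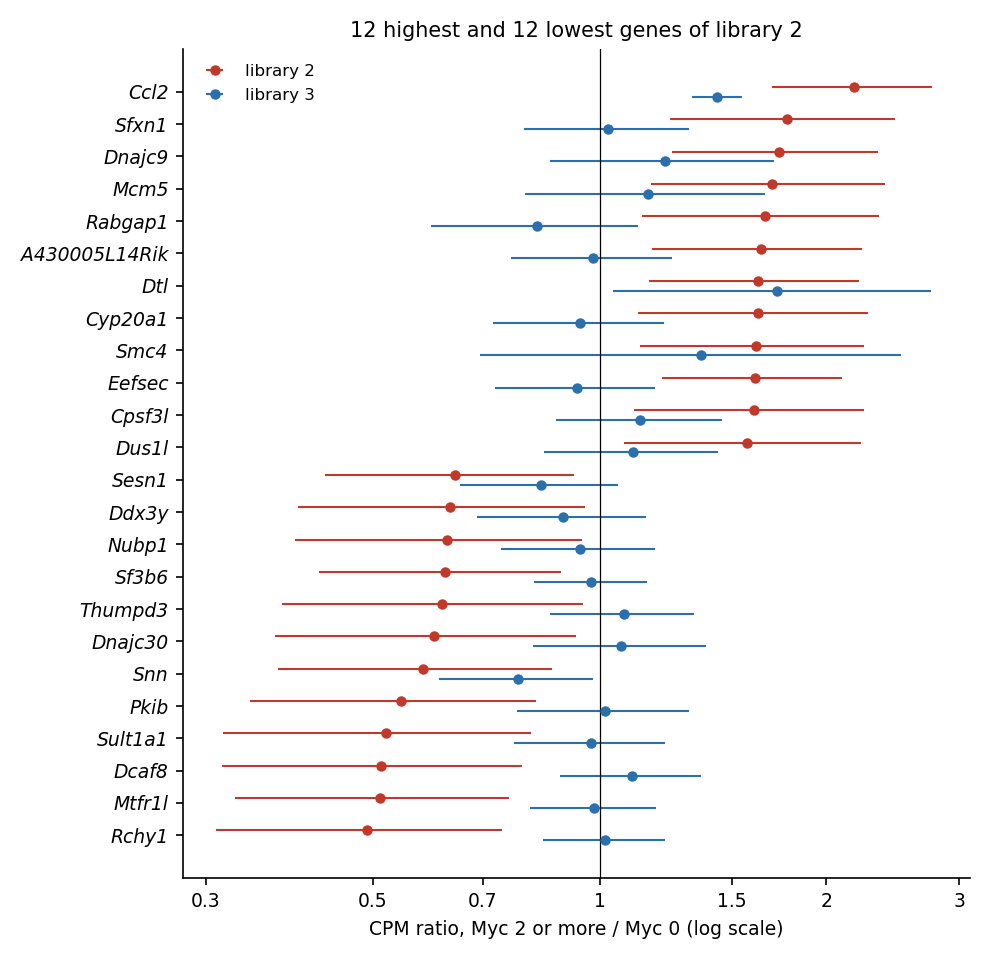
CPM ratios of Myc ≥2 to Myc 0 cells (log scale) with 95% counting intervals for the 12 highest and 12 lowest genes of library 2, in library 2 (red), which chose them, and in library 3 (blue). In library 3 Ccl2 keeps a ratio of 1.43, while Rchy1 stands at 1.02 and Sfxn1 at 1.03.

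Ccl2 was more abundant in library 3, at 587 CPM in its Myc ≥2 and 410 CPM in its Myc 0 cells, with a ratio of 1.43 (1.33-1.54). There it was above 1 in cells of over 6000 and up to 10000 UMIs at 1.32 (1.20-1.45), where library 2 had 0.693, and at 0.932 (0.710-1.21) in deeper cells, where library 2 had 3.26. Ccl12 was at 3948 and 3058 CPM, a ratio of 1.29 (1.254-1.33), close to its 1.33 in library 2. From the shallowest to the deepest class its ratio in library 3 was 1.24 (1.17-1.31), 1.20 (1.15-1.24) and 1.04 (0.938-1.15). With depth weights Ccl2 was at 1.23 and Ccl12 at 1.15 in library 3. Ccl7, their neighbour on chromosome 11, had 5 UMIs in Myc ≥2 cells of library 2. The DNA replication list was at 1414 and 1131 CPM in library 3, with an interval of the ratio of 1.19-1.31 and a ratio of 1.16 with depth weights. Ribosome biogenesis genes had ratios of 1.09 (1.07-1.12) and 1.04, cytokines and chemokines 1.21 (1.18-1.23) and 1.12, and homeostatic genes 0.964 (0.958-0.970) and 0.970. Cells past the same cut-off for replication and mitosis genes were 2 of 375 and 1 of 1752 there, against 29 of 136 and 325 of 2454 in library 2. Whether the ratios differed between the libraries was not tested, as each library is 1 sample.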

How the data were processed

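The deposited values are raw UMI counts in a single joint table of the 3 libraries, with 7522 cell barcodes against 27998 genes, to which the authors applied no normalization. The submitters' processing notes name Cell Ranger 2.1.1 and mm10. Total counts were 24097543 UMIs in library 2 and 19769170 in library 3. Per the methods, the sort excluded doublets, and no doublet caller was run here. Cells of at least 4000 UMIs were thinned to 4000 without replacement (seed 1), counts were summed over the cells of a group and scaled to 1000000, and genes with a mean of 50 CPM over both groups were compared at 1.5-fold. Depth weights gave each Myc 0 cell the weight that matches the Myc ≥2 cells in 5 bins of depth. Intervals (95%) cover counting error only, and UMIs of 1 cell are not independent of each other. The scripts were tested on simulated data (Python 3.11.15, numpy 2.4.6, scipy 1.17.1). The cells, gene lists and comparisons were chosen with earlier results of these data known. Named genes were the 12 highest and 12 lowest ratios, the 2 highest and 2 lowest of each list, and a fixed set of names. Mcm3, Mcm6, Mcm7, Pcna, Top2a, Tuba1b, Cst3, Il1a, Ccl7, Morf4l2, Adap2os, Wdr61, Etf1, Fosb and the genes past the fold in library 3 were added after their values were seen. Gene positions are those of GENCODE M21, in which 27645 of 27998 identifiers were found, and promoter sequences those of RefSeq on GRCm38.p6.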

Additional observations from a re-analysis of the deposited data

How the results depend on the processing

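The counts of genes past the fold moved with most settings. Against 23 higher and 19 lower genes, another seed gave 39 higher genes, no thinning 4 and 1, a minimum of 6000 UMIs 11 lower genes, at least 1 Myc UMI 1 and 0, at least 3 Myc UMIs (30 cells) 363 and 239, depth weights 11 lower genes, and leaving out cells of over 10000 UMIs 65 and 40. A floor of 20 CPM gave 184 and 178, a floor of 100 CPM 2 and 1, a smaller fold 269 and 181, and 2-fold 1 and 1. Settings added after seeing the data were cells with at most 5 UMIs of 33 cell-cycle genes (60 and 1578 cells; 127 and 93 genes), the same with depth weights (139 and 85), Myc UMIs counted after thinning (192 and 118) and the removal of shared barcodes, which left 22 of the 23 and 18 of the 19 past the fold. The planned limit of 2 UMIs over the full replication and mitosis lists left 0 cells in either group and gave no value.

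The ratio of the DNA replication list, 1.16, was 1.23 with another seed, 1.06 at 6000 UMIs, 1.27 with at least 3 Myc UMIs, 0.995 with depth weights, 1.24 without deep cells, and 1.08 and 1.04 in the cells of few cell-cycle UMIs without and with depth weights. The mitosis list, 1.17, was 1.04 at 6000 UMIs, 1.10 with at least 1 and 1.23 with at least 3 Myc UMIs, 0.941 with depth weights, 1.03 without deep cells, 1.09 and 1.03 in cells of few cell-cycle UMIs, and 1.03 with Myc counted after thinning. Cells of few cell-cycle UMIs were chosen by low counts of replication and mitosis genes, so that the choice itself limits the ratios of both lists there. Ribosome biogenesis, 1.13, moved to 1.05 with at least 1 Myc UMI and 1.06 without deep cells and lay between 1.05 and 1.15 under all 11 alternatives. The share of Myc ≥2 cells, 4.23%, was 6.15% at 6000 UMIs and 1.43% with Myc counted after thinning.

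Of the 42 genes past the fold 13 crossed 1 under at least 1 alternative, as did 71 of the 99 other genes recomputed, among them Mki67 (1.23; 0.541 to 1.65), Mxd4 (0.682; 0.357 to 1.04) and Ifitm3 (0.735; 0.513 to 1.07). Among the 13 were Ccl2 without deep cells (0.988), Rabgap1 (0.859), Cyp20a1 (0.993) and Usp21 (1.24) with at least 3 Myc UMIs, Cpsf3l (0.927) and Ppp1r35 (1.07) at 6000 UMIs, Sp3 with another seed (0.954), and Neat1 (0.990), Ptpro (1.06) and Pak2 (1.10) with at least 1. In cells of few cell-cycle UMIs, without and with depth weights, Dtl was at 0.415 and 0.373 and Sp3 at 0.783 and 0.877, and Smc4 was at 0.959 without them. Dtl and Smc4 are replication and mitosis genes, the kind by which those cells were chosen. With Myc counted after thinning Dtl was at 0.958, Cyp20a1 at 0.878, Smc4 at 0.912 and Nsd1 at 1.0. Except where fewer cells or another threshold define the setting, the cause was not tested. No paired analysis over libraries was made, because only libraries 2 and 3 held Myc ≥2 cells. With 544000 thinned UMIs in Myc ≥2 cells, a gene at 50 CPM rests on few counts, and differences well under 1.5-fold were not detectable for such genes.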

Other observations

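Among the 748 genes at 200 CPM or more, which rest on more counts, a few outside the lists had ratios far from 1 and were chosen after their values were seen. Actr3, a subunit of the actin-nucleating Arp2/3 complex, was at 290 CPM in Myc ≥2 and 217 CPM in Myc 0 cells, a ratio of 1.34 (1.13-1.57), and at 278 and 250 CPM in library 3. Cebpb, a transcription factor of macrophage activation, was at 340 and 267 CPM, a ratio of 1.27 (1.09-1.48), and at 445 and 386 CPM in library 3. With depth weights the ratios of Actr3 and Cebpb were 1.29 and 1.22. Emp3, a small membrane protein, was at 307 and 238 CPM in library 2 but at 145 and 150 CPM in library 3. On the lower side, Glul, glutamine synthetase, was at 483 and 615 CPM, a ratio of 0.786 (0.692-0.890), and Sepp1, the selenium carrier selenoprotein P, was at 1140 and 1422 CPM, a ratio of 0.802 (0.738-0.869). In library 3 Glul stood at 805 and 783 CPM and Sepp1 at 1058 and 1203 CPM. Whether depth or the cell cycle accounts for any of these differences was not tested beyond the depth weights, with which Glul was at 0.823 and Sepp1 at 0.872.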
